A study of Mus musculus with 13 samples.

Results

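Red cells carry the most abundant transcripts of any blood cell, and whole brain taken with its vessels holds them too. The probe sets described here measure 10 such genes: the adult alpha globins Hba-a1 and Hba-a2, the embryonic alpha globin Hba-x, the adult beta globins Hbb-bs and Hbb-bt, the embryonic beta-type globins Hbb-y and Hbb-bh1, and the red cell genes Alas2, Slc4a1 and Bpgm. They were chosen by name, as every probe set whose annotation holds at least 1 of these symbols, and this gave 20 of the 45037 probe sets that are not array controls. Of the 20, 13 were for globins and 7 for the other genes, and 4 named several genes at once. All 10 symbols had a probe set, but 11 of the 20 probe sets passed the filter on low signals and 9 did not, among them all 7 of the embryonic globins.

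Each array measured the whole brain of 1 mouse embryo, all at embryonic day 18.5. There were 6 wild-type embryos and 7 Meg3 knock-out embryos from 5 litters. Meg3 is an imprinted gene whose long non-coding RNA is made from the maternal copy. The sources used here give neither the strain nor the extent of the deletion. Litter 148 had 1 knock-out embryo, litter 219 had 2 wild-type and 1 knock-out, litter 238 had 1 wild-type and 2 knock-out, litter 250 had 2 of each and litter 262 had 1 of each. The Meg3 probe set with the highest mean had signals of 3108.72 to 6250.93 in wild-type and 263.941 to 589.195 in knock-out brains, so the genotype labels held in all 13 arrays. Actb is read by control probe sets at both ends of its transcript, and the 3' over 5' signal, a measure of RNA quality, was 2.92 in wild-type 2 and 1.81 in knock-out 1, against 1.32 to 1.495 in the others.

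In mammals the first red cells come from the yolk sac and make embryonic globins. Later red cells come from the fetal liver, make adult globins and lose their nuclei, and by the end of gestation they are most of the red cells. The youngest of these cells, reticulocytes, still hold much messenger RNA, so their transcripts depend on cell age as well as on the amount of blood. In bulk tissue, fewer red cells and less RNA per red cell cannot be told apart.

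Both globin clusters and Alas2 are classic targets of erythroid transcription factors, among them GATA1, which binds GATA sites, and KLF1, which binds CACCC boxes. Upstream sequences from RefSeq (GRCm38.p6) were available for 8 of the 10 genes. The 250 bases before the annotated start are shown 5′ to 3′ on the gene's strand for 1 adult and 1 embryonic gene of each cluster and for Alas2, because these are the genes whose levels are set against each other below. Capitals mark GATAA and its reverse complement TTATC, which is the same site on the opposite strand, and likewise the box CACCC and its reverse complement GGGTG. The window of Alas2 lies at chrX:150547167-150547416 on the plus strand, those of Hba-a1 at chr11:32283422-32283671 and Hba-x at chr11:32276350-32276599 on the plus strand, and those of Hbb-bs at chr7:103827929-103828178 and Hbb-y at chr7:103853208-103853457 on the minus strand.
Alas2: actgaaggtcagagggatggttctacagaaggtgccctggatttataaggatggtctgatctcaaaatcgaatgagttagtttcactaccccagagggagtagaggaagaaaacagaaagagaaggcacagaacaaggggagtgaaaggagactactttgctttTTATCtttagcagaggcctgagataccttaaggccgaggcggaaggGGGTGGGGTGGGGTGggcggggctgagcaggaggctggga
Hba-a1: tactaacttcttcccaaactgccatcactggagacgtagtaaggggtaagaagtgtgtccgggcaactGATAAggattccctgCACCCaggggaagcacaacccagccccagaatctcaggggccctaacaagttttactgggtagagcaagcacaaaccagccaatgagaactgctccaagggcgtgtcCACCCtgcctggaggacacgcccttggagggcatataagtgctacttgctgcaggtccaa
Hbb-bs: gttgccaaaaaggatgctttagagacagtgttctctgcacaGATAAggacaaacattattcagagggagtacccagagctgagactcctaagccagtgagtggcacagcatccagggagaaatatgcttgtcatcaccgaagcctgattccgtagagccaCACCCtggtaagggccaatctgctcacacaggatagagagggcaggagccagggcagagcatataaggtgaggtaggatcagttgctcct
Hbb-y: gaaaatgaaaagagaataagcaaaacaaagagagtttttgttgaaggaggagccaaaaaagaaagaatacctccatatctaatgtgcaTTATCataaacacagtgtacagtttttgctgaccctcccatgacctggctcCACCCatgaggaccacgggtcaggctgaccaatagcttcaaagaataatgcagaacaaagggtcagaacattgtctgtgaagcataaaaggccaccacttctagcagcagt
Hba-x: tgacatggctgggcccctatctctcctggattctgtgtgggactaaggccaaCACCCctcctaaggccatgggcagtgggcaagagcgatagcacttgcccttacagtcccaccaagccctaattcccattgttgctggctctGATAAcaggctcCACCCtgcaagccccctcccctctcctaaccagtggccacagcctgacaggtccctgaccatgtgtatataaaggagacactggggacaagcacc

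Of the 8 upstream windows, 7 held both GATAA and CACCC, and Bpgm held neither. Over 32851 RefSeq promoter windows of the same length, 22.6% held GATAA, 52.0% held CACCC and 10.1% held both, counting both strands. CCAAT stood in 6 of the 8 windows against 33.8% of all, and TATAA in 6 of the 8 against 22.8%. Within 250 bases Alas2 held 3 adjoining CACCC matches on the opposite strand, at 40, 35 and 30 bases before its start. Its 2 TATAA matches are 1 stretch read on both strands. The windows of Hba-a1 and Hba-a2 shared an unbroken run of 247 bases, so that these duplicated genes hardly count as separate cases. Such matches describe letters and do not show that a factor was bound.

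Adult globin transcripts were at the top of the range of the arrays in every brain. Hba-a1 and Hba-a2 share probes in 3 bright probe sets. The probe set 1452757_s_at had signals of 17050 to 23925 in wild-type (median 20951) and 17209 to 27762 in knock-out brains (median 20256). The probe set 1428361_x_at ranged from 16975 to 23874 (median 20169) and from 16796 to 28417 (median 19301). The groups overlapped over nearly their whole range in both, and knock-out 7 was the highest array in each. The adult beta globin probe set 1417184_s_at, which names Hbb-bs and Hbb-bt together with Hbb-b1 and Hbb-b2, ranged from 15563 to 22114 in wild-type (median 17951) and from 14801 to 25365 in knock-out brains (median 18263), again with full overlap. On single arrays these 3 probe sets ranked between the 23rd and the 190th brightest of all.

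The remaining bright alpha globin probe set, 1417714_x_at, behaved otherwise. Its signal was 3639 to 15949 in wild-type (median 5991) and 5089 to 14298 in knock-out brains (median 5939). The high arrays were the 3 of litter 219 and the only array of litter 148, at 13109 to 15949, and the other 9 arrays lay between 3639 and 7757. Both genotypes were found in each range. Its highest array was 4.37-fold above its lowest on the signal + 16 scale, against 1.63-fold for 1452757_s_at and 1.71-fold for the beta globin probe set.

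**Figure D1:**
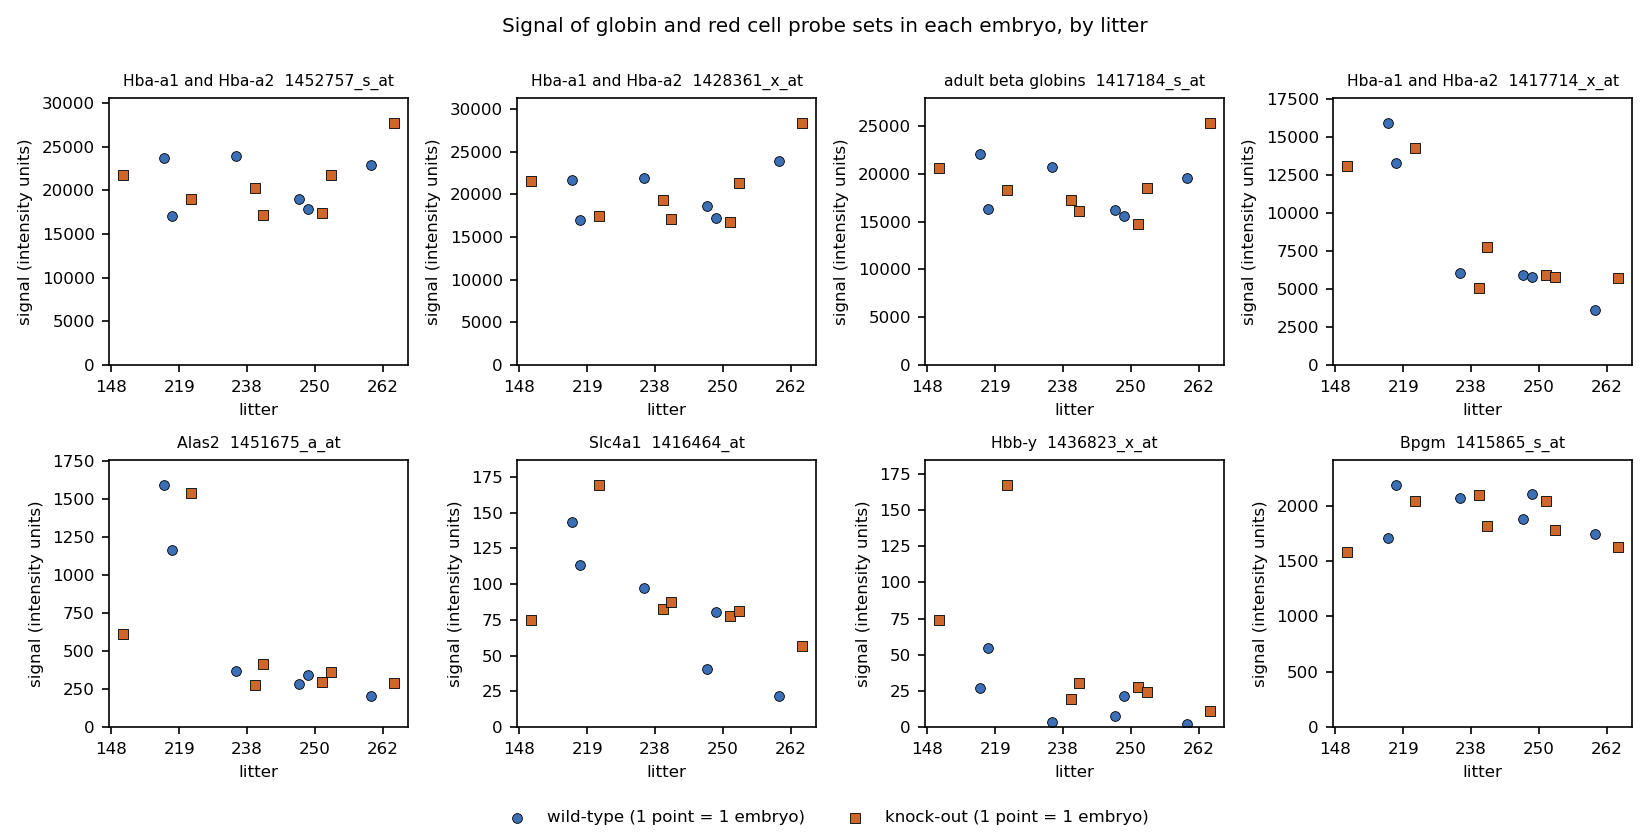
Signal (intensity units, linear axis from 0) of 8 probe sets in each of the 13 embryos, placed by litter; circles are wild-type and squares knock-out embryos. The 4 arrays of litters 148 and 219 lie at 13109 to 15949 for Hba-a1 and Hba-a2 1417714_x_at and the others at 3639 to 7757, while 1452757_s_at spans 17050 to 27762 with no such split.

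Alas2, which encodes the erythroid enzyme for the first step of haem synthesis, followed the same litters. Its signal was 201.5 to 1594 in wild-type (median 355) and 275 to 1536 in knock-out brains (median 362). The arrays of litter 219 stood at 1161, 1536 and 1594, knock-out 1 of litter 148 at 611, and the other 9 arrays at 201.5 to 418. The lowest was wild-type 6 of litter 262. The litter means were 1430 (n = 3) in litter 219, 353 (n = 3) in litter 238, 321 (n = 4) in litter 250 and 244 (n = 2) in litter 262, and litter 219 was 5.58-fold above litter 262 by mean log2(signal + 16).

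Slc4a1, the anion exchanger band 3 of the red cell membrane, was much weaker. Its probe set 1416464_at had signals of 22 to 143 in wild-type (median 88.9) and 56.7 to 169.6 in knock-out brains (median 81.0). The highest 3 arrays were those of litter 219, the lowest was wild-type 6, and the groups overlapped. Its probe set 1434502_x_at had signals of 43.8 to 166 (median 60.4) and 5.66 to 159 (median 83.3), and here the 3 arrays of litter 219 and knock-out 1 were the highest 4. Its other probe set, 1431743_a_at, was below the filter at 0.829 to 5.73 in all arrays.

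Bpgm makes the bisphosphoglycerate that lowers the oxygen affinity of haemoglobin. Its probe set 1415865_s_at had signals of 1711 to 2192 in wild-type and 1585 to 2098 in knock-out brains. The probe set 1415864_at had 1392 to 1679 and 1252 to 2209, and 1448119_at had 844 to 1303 and 583 to 1290. The groups overlapped in all 3, the arrays of litter 219 did not stand together at the top, and knock-out 1 was the lowest array on each. The highest array was 1.38-fold, 1.76-fold and 2.20-fold above the lowest on the signal + 16 scale.

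The embryonic globins were dim in most arrays: of their 91 values 10 lay above the filter, 9 of these in litters 148 and 219. These values are of 7 probe sets on the same 13 arrays and are not separate cases. The same count was not made over other dim probe sets, so it cannot be read as particular to embryonic globins. Hbb-y, the embryonic epsilon-type globin, had signals of 5.50 to 54.2 in wild-type and 7.52 to 145 in knock-out brains on 1436717_x_at. On 1436823_x_at it had 2.10 to 54.5 and 11.03 to 167, and on 1450621_a_at 4.70 to 30.4 and 11.03 to 101. Knock-out 2 of litter 219 was the highest array on all 3 probe sets, followed by knock-out 1 of litter 148, and the groups overlapped. Hba-x, the embryonic zeta-type globin, ranged from 6.94 to 67.0 in wild-type and from 4.45 to 63.2 in knock-out brains. Its high arrays, at 53.2 to 67.0, were those of litters 148 and 219 and wild-type 6 of litter 262. The 3 probe sets of Hbb-bh1, the beta-h1 globin of the earliest red cells, ranged from 1.14 to 48.3. Wild-type 2, at 48.3, 32.9 and 18.7, was the highest or the second highest array on each. The filter stood at a signal of 56.9, and a change in values below it is understated on the log2(signal + 16) scale.

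Probe sets for a single alpha globin gene were also weak. Hba-a1 on 1453574_at had signals of 7.67 to 36.6 in wild-type and 6.16 to 40.1 in knock-out brains, below the filter. Hba-a2 on 1427219_at had 35.6 to 87.3 (median 46.5) and 48.5 to 109.9 (median 83.4). Wild-type 2 was the highest of the wild-type arrays, and without it 5 of 6 wild-type arrays were at 69.2 or less. The annotation also gives the symbol Hbb-b2 alone to 2 further probe sets outside the rule. Of these, 1427866_x_at had signals of 49.9 to 1068, with its highest 4 arrays in litters 148 and 219 (litter F = 15.8, limma adjusted p = 0.0753). The other, 1427865_at, had 56.3 to 231, with knock-out 2 of litter 219 the lowest array and knock-out 1 the highest (litter F = 0.81, limma adjusted p = 0.739).

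The first comparison asked whether loss of Meg3 changed these transcripts, and no probe set among them passed. In the limma fit over 27022 probe sets, 0 of the 11 tested were called, beside 17 of all (0.0629%), of which 16 belonged to Meg3 and its neighbours Rian and Mirg and 0 were higher in knock-out brains. At an unadjusted p under 0.05 there was 1 of the 11, beside 3.96% of all. The means of 7 of the 11 were higher in knock-out brains and of 4 lower, with a median log2 change of 0.02, beside 0.08 over all probe sets tested, of which 72.5% had a higher mean. Under median centring, which moved the median of all to -0.12, 5 of the 7 turned to a lower mean. The groups of 0 of the 20 were free of overlap, beside 0.133% of all tested.

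For the brightest globin probe sets the intervals were narrow. The log2 change (knock-out minus wild-type) was -0.01 for 1452757_s_at (95% interval -0.30 to 0.28), 0.00 for 1428361_x_at (-0.30 to 0.30) and 0.02 for the beta globins (-0.28 to 0.31), each with a limma adjusted p of 1.00. The median of the 100 brightest probe sets of an array, which was 17874 to 24910, ran alongside these probe sets (Pearson r = 0.92 over 13 arrays with 1452757_s_at, below). That r is partly built in, since 1452757_s_at was itself among the 100 on every array but wild-type 2. What part the top of the array range has in the small spread of these probe sets was not tested. The interval was wider for 1417714_x_at, at 0.04 (-0.72 to 0.80), and for Alas2, at -0.14 (-1.21 to 0.93). Within litters 219, 238, 250 and 262 the Alas2 difference was 0.17, -0.10, 0.06 and 0.48. The direction was not stable: with litter as a fixed term the Alas2 change was 0.12 ± 0.15 SE in place of -0.14 ± 0.50 SE, and without litter 219 it was 0.29 ± 0.24 SE. Slc4a1 had changes of 0.20 (-0.46 to 0.86) and -0.01 (-0.92 to 0.90), and Bpgm of 0.16 ± 0.14, 0.07 ± 0.18 and -0.07 ± 0.11 SE.

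The smallest p among the 11 was that of Hba-a2 on 1427219_at. Signals averaged 53.8 ± 20.8 (SD, n = 6) in wild-type and 81.3 ± 21.0 (SD, n = 7) in knock-out brains. The log2 change was 0.50 ± 0.20 SE (95% interval 0.08 to 0.92), with an exact two-sided permutation p of 0.0373 over the 1716 splits of the arrays. It did not pass over all probe sets (limma adjusted p = 1.00). The difference was 0.52, 0.98 and 0.84 in litters 219, 238 and 262 and -0.14 in litter 250, and median centring of the arrays took the change to 0.30. The bright probe sets that name Hba-a2 together with Hba-a1 did not share it, at -0.01, 0.00 and 0.04.

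**Figure D2:**
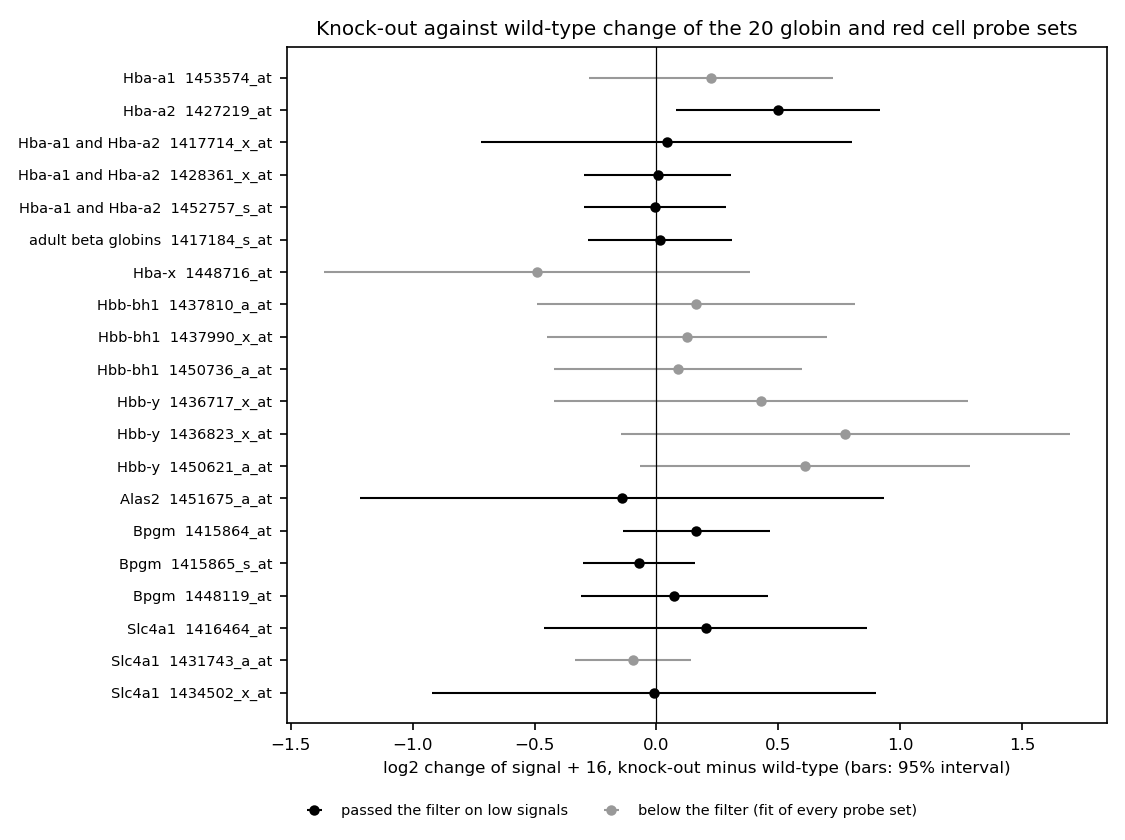
Log2 change of signal + 16 (knock-out minus wild-type) of the 20 probe sets; points are estimates of limma from 6 wild-type and 7 knock-out arrays and bars their 95% intervals. Black probe sets passed the filter and grey ones did not and come from the fit of every probe set; the interval of 1 of them, Hba-a2 1427219_at (0.08 to 0.92), lies above 0.

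Below the filter, where every probe set was fitted, 0 of 9 passed, beside 25 of 45037 (0.0555%). The 3 Hbb-y probe sets had log2 changes of 0.43 (95% interval -0.42 to 1.28), 0.77 (-0.15 to 1.69) and 0.61 (-0.07 to 1.29), with limma adjusted p-values of 1.00, 0.967 and 0.955. Hba-x stood at -0.49 (-1.36 to 0.38) and Hbb-bh1 at 0.16, 0.12 and 0.09. Knock-out 2, at 145, 167 and 101, was the highest array on each Hbb-y probe set. On 1436823_x_at the knock-out embryos were higher within each litter, by 1.73, 1.07, 0.48 and 0.58 in litters 219, 238, 250 and 262, whereas the other 2 probe sets had 1 litter of the opposite sign each.

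The balance of embryonic against adult globin was read as a log2 ratio within each array, of each embryonic probe set over the brightest adult probe set of its cluster. Only differences of such a ratio between arrays can be read, since probe sets differ in brightness. For Hbb-y the ratio was higher in knock-out brains by 0.41 (exact permutation p = 0.381), 0.76 (exact p = 0.175) and 0.59 (exact p = 0.132). For Hba-x it differed by -0.48 (exact p = 0.338), and for Hbb-bh1 by 0.15, 0.11 and 0.07 (exact p = 0.739, 0.748 and 0.782). Of the 7 ratios 0 passed after adjustment over the 7, the smallest adjusted p being 0.612, with two-sided tests whose smallest possible p is 0.00117. The 3 Hbb-y ratios are of 1 gene and are not separate evidence. The median signal of an array was 82.9 to 111 in wild-type and 96.6 to 124 in knock-out brains. What part this has in the ratios of such dim probe sets was not tested.

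Because the adult denominator moved little while Alas2 moved much, Alas2 was also used as the denominator, a choice made after the data were seen. Against Alas2, 1436823_x_at was higher in knock-out brains by 0.91 (exact permutation adjusted p = 0.0163 over 7 ratios). The other Hbb-y probe sets were higher by 0.57 (adjusted p = 0.237) and 0.75 (adjusted p = 0.446) in the same exact test and did not pass. Thus 1 of 3 probe sets of this gene passed, at signals mostly below the filter. The ratios of Hba-x and Hbb-bh1 passed in no alternative, this denominator included (smallest exact permutation adjusted p = 0.121). The Alas2 denominator was run in 1 setting, with no litter block, other pseudocount or array left out, so how stable this pass is was not tested.

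**Figure D3:**
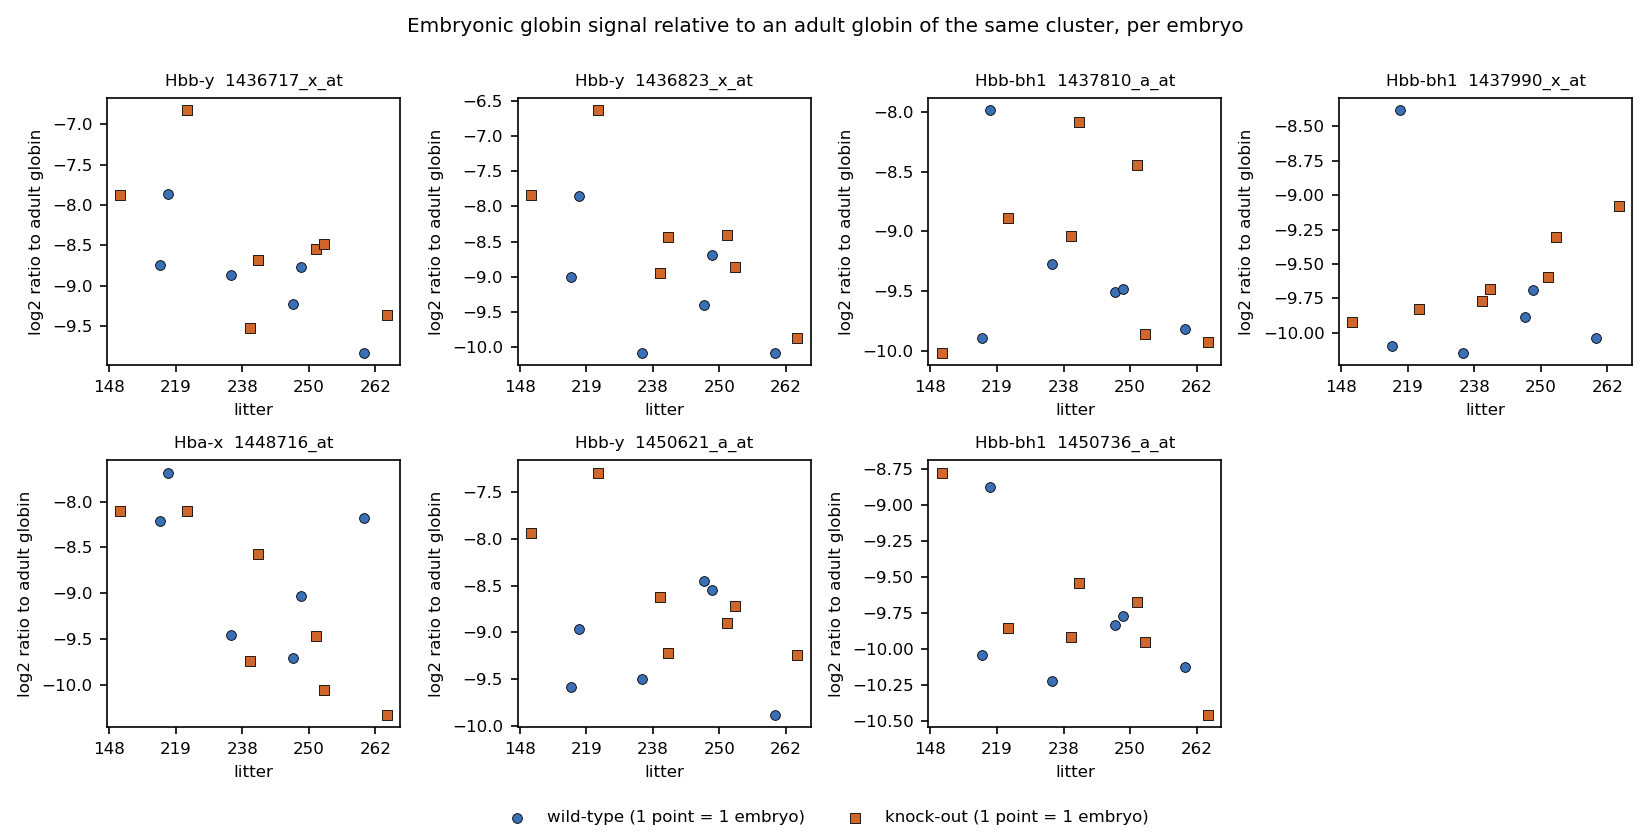
Log2 ratio of each of the 7 embryonic globin probe sets to the adult probe set of its cluster (1417184_s_at for Hbb-y and Hbb-bh1, 1452757_s_at for Hba-x) in each embryo, placed by litter; circles are wild-type and squares knock-out. Wild-type and knock-out embryos overlap in each panel, and the knock-out of litter 219 is the highest point for all 3 Hbb-y probe sets.

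The second comparison was between litters, and was added after the data were seen. An F test over the 5 litters, with genotype in the limma model, called Alas2 (F = 42.3, adjusted p = 0.0174), which ranked 5 of 27022 probe sets. It called 11 probe sets in all (0.0407%), and with no filter 10 of 45037 (0.0222%), where 0 of the 9 dim globin and Slc4a1 probe sets were called. Of the 11 red cell and globin probe sets tested, 1 was called, and 5 (45.5%) had an unadjusted p under 0.05, beside 19.2% of all. These 5 were Alas2, 1417714_x_at (F = 22.2, adjusted p = 0.0581, rank 24), both tested Slc4a1 probe sets (F = 9.67 and 9.69, adjusted p = 0.0873 and 0.0872) and Bpgm 1448119_at (F = 6.22, adjusted p = 0.131). The 5 are not separate cases of 1 pattern, since Slc4a1 counts through both its tested probe sets and Bpgm ran differently. Bpgm 1448119_at had a mean signal of 1001 in litter 219, 1294 in litter 262 and 583 in the only array of litter 148. With 1 array left out, the F of Bpgm 1448119_at fell as low as 1.83. The 3 probe sets nearest the top of the array range had F values of 1.20, 1.65 and 2.34.

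Alas2 passed for litter in 17 of the 26 alternatives run. Leaving out any of the 4 embryos of litters 148 and 219 kept the call, with limma adjusted p-values of 0.0403 and 0.0112 when wild-type 1 or 2 was dropped and 0.0089 and 0.0203 when knock-out 1 or 2 was. It was lost without wild-type 3 (adjusted p = 0.0581), wild-type 4 (0.0594), wild-type 6 (0.121), knock-out 5 (0.0662), knock-out 6 (0.0705) or knock-out 7 (0.126), with limma F values of 35.5 to 40.8 against 42.3 with all arrays. It was also lost without litter 219 (F = 5.74, limma adjusted p = 0.0886), litter 250 (0.165) or litter 262 (0.139). It held without the 2 arrays of high 3' to 5' ratio, wild-type 2 and knock-out 1 (F = 55.3, limma adjusted p = 0.0239). The probe set 1417714_x_at, not called in the fit of all arrays, passed in 5 of its 25 alternatives: median centring (limma adjusted p = 0.0333), quantile normalization (0.0259), and without wild-type 1 (0.0471), wild-type 2 (0.0216) or knock-out 2 (0.0277). Alas2 passed in the same 5. Litter and any handling that littermates shared cannot be told apart.

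Among genes of the red cell lists the litters differed in both directions. Which cells of the brain gave the signal of each such gene was not tested, so these are not all readings of red cells. Of 39 genes tested in the lists of haem synthesis, red cell membrane, red cell enzymes and iron, 26 had a higher mean in litter 219 than in litter 262 and 13 a lower one. These litters were taken because they had the highest and the lowest Alas2 mean. The same count was not made over all genes, so 26 of 39 cannot be read as particular to red cell genes. Tent5c, a poly(A) polymerase abundant in maturing red cells, was the only gene called by litter (F = 38.0, limma adjusted p = 0.0239), beside 4 of 12920 genes (0.0310%). Its signals were 458 to 637 in litter 219, 323 in litter 148 and 90.8 to 183 in the other 9 arrays. Slc25a37, the mitoferrin that brings iron into mitochondria, and Fech, the ferrochelatase that puts iron into haem, are named here after their values were seen. Slc25a37 had signals of 554 to 1064 in litter 219, 585 in litter 148 and 181 to 453 elsewhere (F = 13.3, limma adjusted p = 0.0766). Fech had 1561 to 2361, 1422 and 1074 to 1392 (F = 6.98, limma adjusted p = 0.115). Neither passed. The exonuclease Isg20 had a higher F than both without passing (F = 21.1, limma adjusted p = 0.0581), but not this split. Its mean log2(signal + 16) was 7.54 in litter 219, 6.24 in litter 262 and lowest, at 5.03, in litter 148. Slc2a1 was highest in litter 148, at 11.77, with 11.33 in litter 219 and 10.46 in litter 262 (F = 9.68, limma adjusted p = 0.0872). Others ran the opposite way without passing: Abcb10, a mitochondrial transporter of the haem pathway, had a mean log2(signal + 16) of 8.68 in litter 219 and 9.61 in litter 262 (F = 7.92, limma adjusted p = 0.104), and Xk, a membrane protein that carries a blood group, had 6.61 and 7.35 (F = 6.72, limma adjusted p = 0.121). By mean log2(signal + 16), litter 219 was 4.83-fold litter 262 for Tent5c, 3.74-fold for Slc25a37 and 1.79-fold for Fech.

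**Figure D4:**
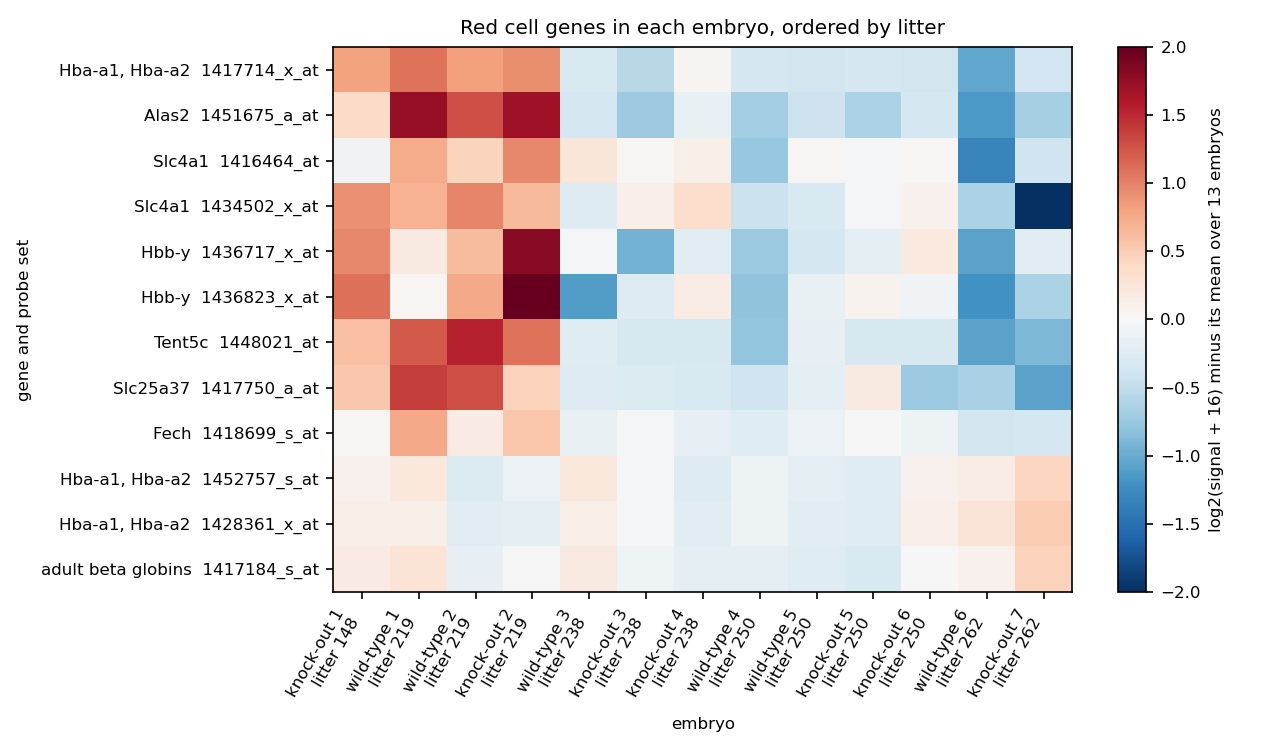
Log2(signal + 16) of 12 red cell and globin probe sets in the 13 embryos, ordered by litter, each minus its mean over the embryos (red above, blue below). The rows are a selection, with Slc25a37 and Fech taken after their values were seen. Bpgm, Hba-x, Hbb-bh1, Abcb10, Xk and Isg20 are among those not shown. The 4 columns of litters 148 and 219 are red for Alas2, Tent5c and Hba-a1 and Hba-a2 1417714_x_at, and the bottom 3 probe sets, the brightest globins, are pale throughout.

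Relations across the 13 arrays tied the 3 brightest globin probe sets to each other. Against 1452757_s_at, 20 relations were computed. The other bright alpha probe set (r = 0.97, rho = 0.96, permutation adjusted p = 0.000133), the beta globins (r = 0.95, rho = 0.88, adjusted p = 0.0001) and the median of the 100 brightest probe sets of the array (r = 0.92, rho = 0.91, adjusted p = 0.0001) ran with it. The permutation p of the latter pair, 1e-05, is the smallest the resampling can give. Without the 2 arrays farthest from the median these were 0.94, 0.93 and 0.95, and with litter means removed 0.98, 0.98 and 0.93. With quantile normalization the relation to the beta globins was 0.74. The relation to the median of the 100 brightest probe sets is partly built in. On every array but wild-type 2, where it ranked 148, 1452757_s_at was itself among those 100. Neither 1417714_x_at (r = -0.15, rho = -0.29, permutation adjusted p = 0.816) nor Alas2 (r = -0.14, rho = -0.18, permutation adjusted p = 0.816) passed, although the first of these names the same 2 genes.

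Against Alas2 no pooled correlation is given, because litters 148 and 219 lay apart from the rest. Over the 9 arrays of litters 238, 250 and 262, 19 relations were computed after the data were seen. Their permutations ignored litter, so the p-values mix differences between these litters with relations within them. Alas2 ran with 1417714_x_at (r = 0.90, exact permutation p = 0.00134, adjusted p = 0.0256; rho = 0.80, adjusted p = 0.131) and with Slc4a1 1416464_at (r = 0.84, exact permutation p = 0.00386, adjusted p = 0.0367; rho = 0.73, adjusted p = 0.197). Without the 2 arrays farthest from the Alas2 median these fell to 0.49 and 0.60, so they rest on those arrays. Hbb-y 1436717_x_at had r = 0.78 and rho = 0.82 (exact permutation adjusted p = 0.0665 and 0.131), and 0.76 without those arrays. With the litter means removed over all 13 arrays, Alas2 had r = 0.81 with 1417714_x_at, 0.70 with Slc4a1 1416464_at and -0.39 with Slc4a1 1434502_x_at. With the bright globins Alas2 had r = -0.30, -0.40 and -0.20 within the 9 arrays, for 1452757_s_at, 1428361_x_at and 1417184_s_at, and none of these passed (exact permutation adjusted p = 0.682, 0.618 and 0.749). The sign turned with litter means removed over 13 arrays, to 0.40, 0.38 and 0.56.

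**Figure D5:**
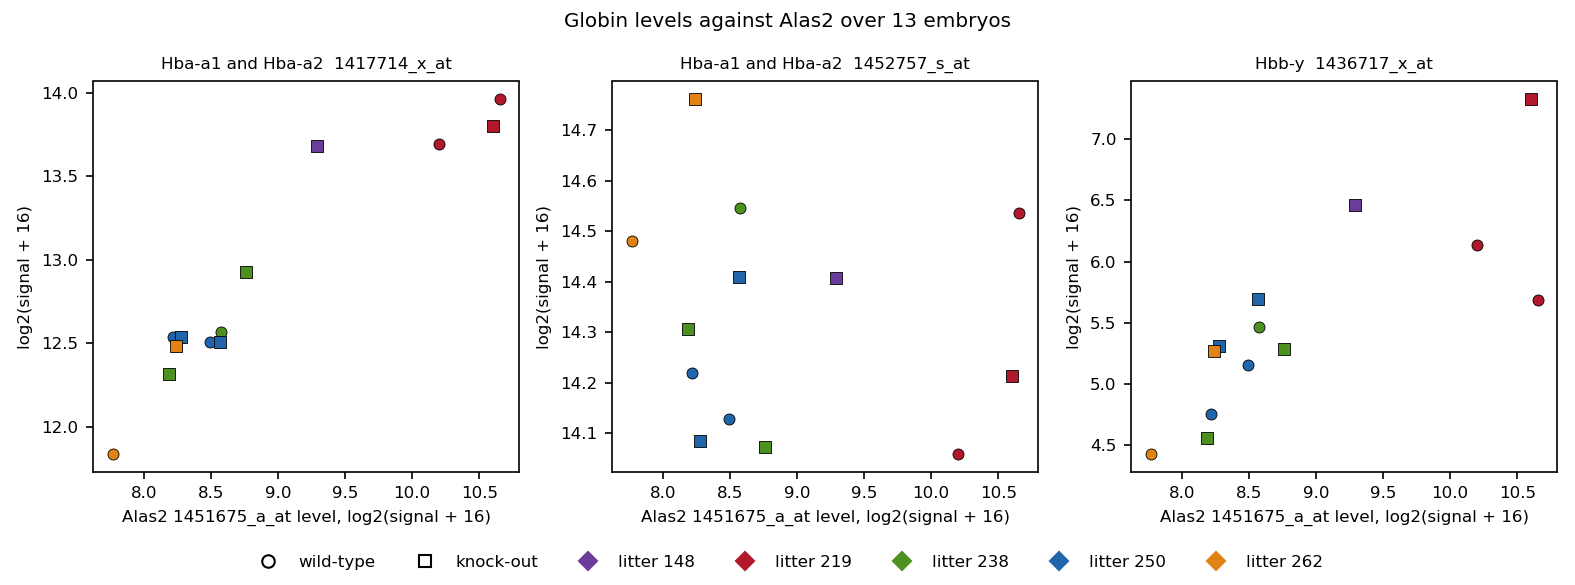
Log2(signal + 16) of 3 globin probe sets against that of Alas2 in the 13 embryos; circles are wild-type, squares knock-out and colours the 5 litters. On the left 1417714_x_at rises with Alas2, in the middle 1452757_s_at does not, and on the right the highest 3 arrays for Hbb-y 1436717_x_at belong to litters 148 and 219.

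By the rule for likeness, which takes genes outside the list by Pearson r over the 13 arrays, the genes most like the mean of the adult globin deviations were 2310022A10Rik (r = 0.83), A930024E05Rik (0.80) and Ocel1 (0.79). The genes most like the embryonic globin mean were Zc3h6 (0.91), Adat2 (0.90) and Fam32a (0.88). All were the closest of the genes tested, and whether unrelated genes would come as close was not tested. The adult mean weighed 6 probe sets equally, among them the weak 1427219_at and 1453574_at. These and 1417714_x_at had an SD of log2(signal + 16) of 0.44, 0.44 and 0.68, against 0.22 for 1452757_s_at. The adult mean ranged from -0.27 to 0.16 in wild-type and from -0.18 to 0.32 in knock-out arrays (mean log2 deviation from the average array), and the embryonic mean from -0.48 to 0.72 and from -0.31 to 0.90. Wild-type 2 and knock-out 1, whose 3' to 5' ratios were high, had embryonic means of 0.72 and 0.65, and the part of RNA quality in these was not tested. Knock-out 2, with the highest embryonic mean, had a ratio of 1.34.

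Other genes of the red cell pathway were taken from lists, and by genotype 0 genes passed in any of them, beside 3 of 12920 genes (0.0232%), all lower. In haem synthesis 7 of 13 tested genes had higher and 6 lower means in knock-out brains (median log2 change 0.03, against 0.04 over all genes). Its smallest p-values belonged to Ppox, protoporphyrinogen oxidase, at 0.32 ± 0.19 SE and Urod, uroporphyrinogen decarboxylase, at -0.17 ± 0.13 SE. In the red cell membrane list 8 of 9 had higher means (median 0.07), where 8458 of 12920 genes did. Dmtn, the spectrin-actin binding dematin, was at 0.18 ± 0.16 SE and the water channel Aqp1 at -0.36 ± 0.41 SE.

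Among red cell enzymes and proteins 5 of 11 had higher and 6 lower means (median -0.01), with catalase, Cat, at 0.18 ± 0.20 SE and the exonuclease Isg20 at -0.33 ± 0.37 SE. Of 6 genes of iron uptake and storage 2 had higher and 4 lower means (median -0.02). The transferrin receptor Tfr2 was at -0.09 ± 0.13 SE and the haem oxygenase Hmox1 at 0.11 ± 0.18 SE. Of 10 erythroid transcription factors 7 had higher and 3 lower means (median 0.04), with Zbtb7a, a repressor of fetal globin in humans, at 0.24 ± 0.16 SE and Ldb1, which brings distant globin enhancers to promoters, at 0.36 ± 0.31 SE. Bcl11a, which silences embryonic globins, was at 0.01 ± 0.16 SE, but the brain makes it in neurons as well. In erythropoietin signalling 5 of 7 had higher means (median 0.11), with Stat5b at 0.11 ± 0.11 SE and its target Cish at 0.14 ± 0.14 SE. Of the globins made outside red cells, neuroglobin, Ngb, was at -0.12 ± 0.23 SE and cytoglobin, Cygb, at 0.10 ± 0.30 SE.

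Markers of other cells that blood or vessels could bring gave no call by genotype or litter. Of 4 platelet genes tested 1 had a higher mean, with the chemokine Pf4 at -0.19 ± 0.20 SE and the glycoprotein Gp1bb at 0.07 ± 0.16 SE. Of 4 neutrophil and myeloid genes 3 did, with the granule protein Ngp at -0.43 ± 0.27 SE and S100a9 at 0.32 ± 0.30 SE, and of 7 lymphocyte genes with a probe set 0 passed the filter. Of 12 endothelial genes 9 had higher means, led by the adhesion molecule Pecam1 at 0.24 ± 0.14 SE and the clotting factor Vwf at 0.38 ± 0.24 SE. Of 10 microglia and macrophage genes 6 did, with the receptor Cx3cr1 at 0.31 ± 0.12 SE and Aif1 at 0.15 ± 0.17 SE. Of 10 neuron genes 8 did, with Dcx at 0.16 ± 0.10 SE and Elavl3 at 0.14 ± 0.11 SE, and all 10 were above the filter.

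These lists were also read per array beside the litter result. In the arrays of litter 219, wild-type 1, wild-type 2 and knock-out 2, the mean log2 deviation of Alas2 was 1.74, 1.29 and 1.69. That of the platelet list was 0.17, -0.10 and -0.20, and that of the endothelial list 0.03, -0.24 and 0.14. In litter 262 Alas2 was at -1.14 and -0.67 in wild-type 6 and knock-out 7, the platelet list at -0.27 and -0.12 and the endothelial list at -0.46 and -0.44. Like the endothelial list, the neutrophil list, at -0.53 and -0.54, and the microglia list, at -0.33 and -0.37, had their lowest arrays in litter 262. The platelet list did not, since knock-out 2 was below knock-out 7, and the neuron list was at 0.11 and 0.10 in litter 262. In knock-out 1 of litter 148 Alas2 was at 0.38, the platelet list at 0.01, the endothelial list at -0.09, the neutrophil list at -0.04 and the microglia list at -0.31. In litter 219 the neutrophil list was at 0.21, -0.38 and 0.33 and the microglia list at -0.16, -0.18 and 0.15. Among platelet genes Pf4 had its highest litter mean in litter 219 (10.12 on the log2(signal + 16) scale) and its lowest in litter 262 (9.02), as Alas2 did, and did not pass (F = 11.8, limma adjusted p = 0.0778). The part of these cell types in the litter result was not tested.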

How the data were processed

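Whole-brain RNA was measured on Affymetrix arrays, 1 embryo per array, with probes made by the one-cycle biotin method per the labels' protocols. The authors deposited 1 table of intensity values per probe set on a linear scale. The software and scaling are not given in the sources used here. Of 45101 probe sets, 64 controls were left out. Gene names came from the platform annotation, with 34945 probe sets naming 1 gene, 932 several and 9160 none. Several-gene probe sets cannot separate near-identical globins.

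Values were tested as log2(signal + 16) with limma 3.58.1 (R 4.3.3) and Benjamini-Hochberg adjustment over 27022 probe sets above the 40th percentile of mean log2 signal (56.9). Fold changes of dim probe sets are understated on this scale. The reported genotype fits had no litter term, the litter F test had terms for genotype and litter, and a call was an adjusted p under 0.05. Single values used exact permutation over 1716 splits (smallest two-sided p 0.00117), and correlations over 13 arrays used 100000 resamples. P-values measure the spread between embryos, of which littermates may not be independent. All members are described, and from each list the 2 genes with the smallest p were named, with exceptions stated. The members and lists were chosen with earlier results of these data known. The litter test, the Alas2 denominators and the Alas2 relations were chosen after seeing the data. Same-numbered wild-type and knock-out arrays deviated together with r of -0.43 to 0.20 over 6 pairs, 1 of them over 0.1, so the numbers were not taken to pair embryos. The limma scripts were tested on simulated data. Alternatives changed the pseudocount, scaling, filter, probe set choice, litter and replicate terms and RNA quality covariate, or left out arrays or litters.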

Additional observations from a re-analysis of the deposited data

Results flagged for a closer look

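Of 40 groups of 6 or 7 arrays examined for a single distant array, 6 had one. Chance gives about 1 in 20 groups. For Slc4a1 on 1416464_at, knock-out 2 was far above the other knock-out arrays, at 169.6 against 87.8 for the next. On 1434502_x_at, the other Slc4a1 probe set above the filter, knock-out 7 was far below, at 5.66 against 74.7. Bpgm on 1448119_at was low in knock-out 1, at 583 against 946 for the next lowest. That array had an Actb 3' to 5' ratio of 1.81, and the part of RNA quality in this value was not tested.

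The other 3 were for Hbb-bh1, below the filter. On 1437990_x_at wild-type 2 stood at 32.9 against 4.27 for the next wild-type array. On 1450736_a_at wild-type 2 stood at 18.7 against 4.99, and knock-out 1 at 30.9 against 5.56. These 2 arrays had the highest Actb 3' to 5' ratios, 2.92 and 1.81, and the part of RNA quality in these values was not tested.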

How the results depend on the processing

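None of the 11 globin and red cell probe sets above the filter passed for genotype under the alternatives run (limma adjusted p 0.597 to 1.00), and the 9 below it were fitted only with no filter. The genotype calls over all probe sets numbered 17, against 9 with the replicate block, 11 with the filter at the 60th percentile, 3 with 1 probe set per gene and 15 to 18 without each array in turn. The litter calls, 11 in the reported fit, were unstable: 31 with pseudocount 1, 7 with 64, 646 with median centring, 976 with quantile normalization, 3 with the 60th percentile filter, 5 with 1 probe set per gene, 4143, 5, 1 and 1 without litters 219, 238, 250 and 262, and 1 to 1758 without each array. The cause was not tested. Signs of the small genotype changes turned as follows. Pseudocount 64 gave 0.033 for 1434502_x_at. Median centring gave -0.033 for 1415864_at, -0.18 for 1417184_s_at, -0.15 for 1417714_x_at, -0.19 for 1428361_x_at and -0.12 for 1448119_at. Quantile normalization gave -0.020 for 1416464_at and 0.020 for 1452757_s_at. A litter block gave -0.024 for 1428361_x_at and 0.12 for Alas2, and as a random block -0.0025 for 1428361_x_at and 0.0056 for 1434502_x_at. The replicate block, which drops knock-out 7, gave -0.061 for 1417184_s_at, -0.080 for 1428361_x_at and 0.34 for 1434502_x_at. The covariate of RNA quality gave -0.012 for 1417184_s_at, -0.037 for 1428361_x_at, 0.21 for 1434502_x_at, -0.017 for 1448119_at and 0.054 for Alas2. Without litter 148 the changed signs were -0.011 for 1417184_s_at, -0.088 for 1417714_x_at and -0.013 for 1428361_x_at. Without litter 219 the changed signs were 0.29 for 1434502_x_at, -0.078 for 1448119_at and 0.29 for Alas2. Without litter 238 the changed signs were -0.021 for 1448119_at and 0.091 for 1452757_s_at. Without litter 250 the changed signs were -0.023 for 1417184_s_at and -0.039 for 1428361_x_at. Without litter 262 the changed signs were -0.041 for 1417184_s_at, -0.092 for 1417714_x_at, -0.028 for 1428361_x_at and 0.21 for 1434502_x_at. Leaving out wild-type 2 and knock-out 1 gave -0.042 for 1417184_s_at, -0.059 for 1428361_x_at, 0.029 for 1434502_x_at and 0.029 for Alas2. Without each array in turn the ranges were -0.061 to 0.071 for 1417184_s_at, -0.080 to 0.057 for 1428361_x_at, -0.16 to 0.27 for 1417714_x_at, -0.079 to 0.038 for 1452757_s_at, -0.16 to 0.34 for 1434502_x_at, -0.043 to 0.37 for 1416464_at and -0.43 to 0.19 for Alas2. Of the embryonic to adult ratios, Hbb-y 1436823_x_at was 0.91 over Alas2 and passed, in the only setting run with that denominator. For Hbb-bh1, 1450736_a_at turned to -0.039 with a litter block, -0.086 without litter 148 and -0.012 without 238 (-0.086 to 0.26 without each array), 1437810_a_at to -0.092 without 238 (-0.037 to 0.41), and 1437990_x_at to -0.044 without 262. Signal near background limits all embryonic globin values.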
